A study of Mus musculus with 2 samples.

Results

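The KRAB zinc finger genes were followed between PB and PB-TERRA mouse embryonic stem cells (mESCs). The members were the genes of the deposited table whose KEGG orthology is K09228, the entry for KRAB domain-containing zinc finger proteins, and whose symbol is Zfp followed by digits only. The rule gave 284 of the 18888 genes in the table and used no measured value. Both libraries came from 46C mESCs, an embryonic stem cell line labelled as derived from the inner cell mass, at passages 21 to 24. PB mESCs carried an empty PiggyBac vector, a transposon that integrates into the genome, and PB-TERRA mESCs carried the same kind of vector with a stretch of telomeric repeats that is transcribed into polyadenylated TERRA, the telomeric repeat-containing RNA. All cells were grown on gelatin with LIF and serum. Each condition has 1 library, so the differences below are between 2 libraries, have no replicate check and carry no p-value. Neither integration sites nor clonality are given in the sources used here.

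KRAB zinc finger proteins form the largest family of sequence-specific repressors in mammals. The tandem C2H2 zinc fingers read the DNA sequence, and the KRAB box recruits the corepressor TRIM28 (KAP1), which brings the H3K9 methyltransferase SETDB1 and heterochromatin proteins. In mESCs the family is known for silencing endogenous retroviruses and for keeping the DNA methylation of imprinted regions. Its genes often lie in tandem clusters that arose by duplication, and the duplicates can share long stretches of sequence.

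The family name was checked against the proteins in the GENCODE M21 annotation with a sequence profile of the KRAB box. A box was found in 193 members and was not found in 89. The remaining 2, Zfp783 and Zfp939, have no protein in that annotation. The lowest profile score among the 193 was 22.4, and no other member reached the minimum score of 10. The 89 without a box include pluripotency-associated factors such as Zfp42 (Rex1), Zfp281 and Zfp296, the transcription factor Zfp143 and the large protein Zfp462. The KRAB label is therefore not borne out for about 31.6% of the members that have a protein, and both kinds are described apart below. The proteins with a box had a median of 12 zinc fingers (0 to 33), counted with a C2H2 pattern, and a median length of 576 residues. Only Zfp781 had a box and no match to the finger pattern. Those without a box had a median of 10 fingers (2 to 37) and a median of 594 residues.

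RefSeq promoters (GRCm38.p6) were matched to 172 of the 193 members with a KRAB box and to 70 of the 89 without. The 250 bases before the start are printed for Zfp808 and Zfp935, which were both higher in PB-TERRA mESCs, for Zfp936, which had the largest excess of reads, and for Zfp951, which had the lowest log2 ratio. Zfp808 and Zfp935 lie in 1 gene cluster, with Gm3604 (log2 ratio 0.0034) between them, and Zfp936 and Zfp951 are on other chromosomes. Zfp951 has 2 windows and the first is shown. Capitals mark TTAGGG, the telomeric hexamer that TERRA repeats, or its reverse complement CCCTAA, and the element CCAATCA or its reverse complement. Both motifs were chosen after these sequences were seen.
Zfp808, chr13:62129640-62129889, plus strand: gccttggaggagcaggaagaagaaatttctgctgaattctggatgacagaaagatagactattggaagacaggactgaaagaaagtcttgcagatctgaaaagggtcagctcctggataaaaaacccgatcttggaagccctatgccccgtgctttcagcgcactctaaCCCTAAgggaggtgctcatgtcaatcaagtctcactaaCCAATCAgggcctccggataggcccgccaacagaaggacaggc
Zfp935, chr13:62466813-62467062, minus strand: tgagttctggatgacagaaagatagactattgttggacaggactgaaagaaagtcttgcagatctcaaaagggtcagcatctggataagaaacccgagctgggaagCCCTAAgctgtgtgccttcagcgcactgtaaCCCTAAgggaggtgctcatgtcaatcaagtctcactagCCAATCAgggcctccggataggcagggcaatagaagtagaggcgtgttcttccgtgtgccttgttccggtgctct
Zfp936, chr7:43177340-43177589, plus strand: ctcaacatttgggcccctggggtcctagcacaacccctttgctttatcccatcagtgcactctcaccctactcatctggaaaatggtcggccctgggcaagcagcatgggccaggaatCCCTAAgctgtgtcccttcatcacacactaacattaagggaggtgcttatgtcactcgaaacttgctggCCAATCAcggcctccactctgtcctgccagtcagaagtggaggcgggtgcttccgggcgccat
Zfp951, chr5:104860028-104860277, minus strand: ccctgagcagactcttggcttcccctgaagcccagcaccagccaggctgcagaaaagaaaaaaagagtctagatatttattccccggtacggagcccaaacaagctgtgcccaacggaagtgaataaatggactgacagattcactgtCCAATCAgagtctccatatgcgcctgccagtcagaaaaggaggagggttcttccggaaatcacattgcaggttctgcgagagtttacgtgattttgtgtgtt

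The Zfp808 and Zfp935 windows aligned over 218 bases with 89.4% identity and no gap, and their longest identical run of 40 bases holds the hexamer. Counted on both strands, the hexamer was in 18.2% of the 203 windows of members with a KRAB box, in 11.5% of the 96 windows of members without one and in 9.32% of all 32851 windows of the same length. The CCAATCA element was in 25.6%, 6.25% and 7.23%, respectively. Both together were in 8.37% of the windows of members with a box, in none of the 96 of members without one and in 0.843% of all windows. The motifs are not particular to the members: in the 88 windows of the other K09228 genes with a box, the hexamer was in 48.9%, the CCAATCA element in 54.5% and both in 36.4%. The letters of these motifs cannot overlap each other. A tandem pair of hexamers was found in 3 of all windows, 2 of them windows of 1 member with a box and 1 of another K09228 gene with a box. The windows are not independent, since a gene can have several and duplicated genes share sequence, as Zfp808 and Zfp935 do. The printed windows of these genes are among those counted. By gene, the hexamer was in a window of 34 of the 172 members with a box. A match of letters is not a binding site.

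The members were expressed at low to middling levels in both libraries. FPKM values, which divide reads by gene length and by library depth, are used for levels. In PB mESCs they spanned 0.01, the lowest value the table lists, to 189.98, with quartiles of 2.04, 4.11 and 8.18. In PB-TERRA mESCs they spanned 0.01 to 188.41, with quartiles of 2.03, 4.05 and 8.08. The median over all 18888 genes was 3.71 and 3.67 FPKM. Fewer members than genes at large lay at either end of that distribution: 12.3% were under 1 FPKM in PB and 11.97% in PB-TERRA, against 36.2% and 36.3% of all genes, and 8.10% and 8.45% were over 20 FPKM, against 21.7% in each library. The 3 members of highest level made up 17.4% of the summed FPKM in PB and 19.8% in PB-TERRA. Members without a KRAB box were listed at higher levels, with medians of 6.43 and 6.41 FPKM, than those with one, at 3.40 and 3.33.

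**Figure D1:**
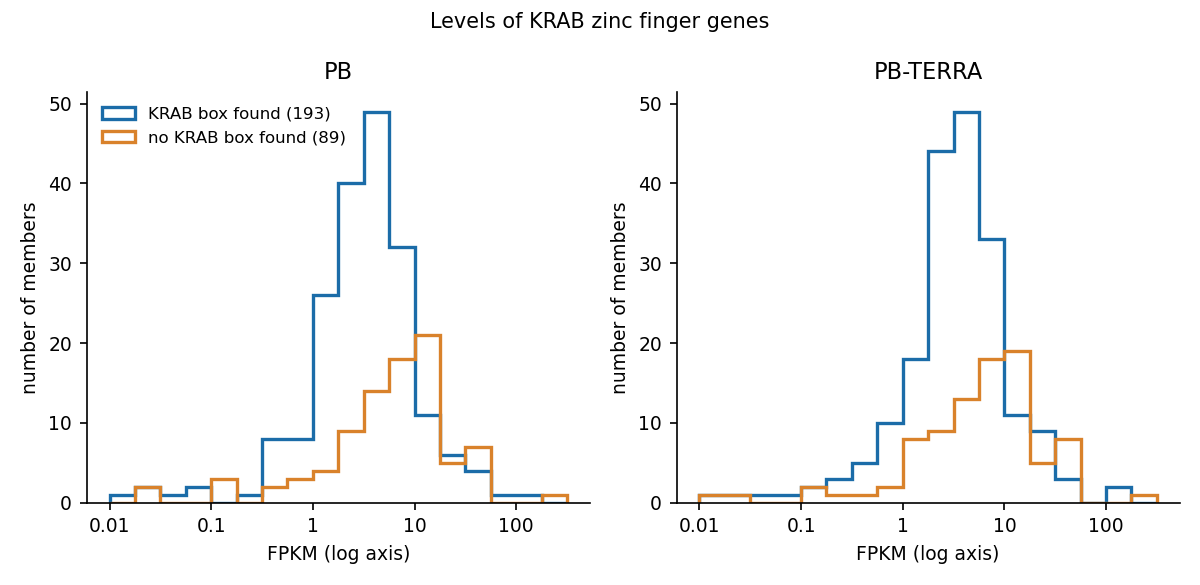
Number of members (y axis) by FPKM (x axis, log scale) in the PB and the PB-TERRA library, for members with and without a KRAB box. Most members with a box sit between 1 and 10 FPKM in both libraries, and few members of either kind are over 20 FPKM.

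Zfp42, also known as Rex1 and a marker of naive pluripotency, was the most abundant member, at 189.98 FPKM in PB and 188.41 in PB-TERRA. It has no KRAB box. Zfp57, which binds methylated imprinting control regions and keeps their methylation, followed at 134.30 and 158.45 FPKM. The third was Zfp936, at 82.19 and 145.47 FPKM. The other 7 of the 10 highest were Zfp534, Zfp219, Zfp568, Zfp740, Zfp664, Zfp281 and Zfp600, which lay between 35.49 and 43.29 FPKM in PB and between 36.92 and 49.60 in PB-TERRA. Of these 10, 5 have a KRAB box. At the other end, Zfp366, Zfp872 and Zfp92 were listed at 0.01 FPKM in 1 of the libraries and at 0.02 or 0.03 in the other, that is at 0 to 3 estimated reads. No fold is given for them.

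To compare the libraries, a log2 ratio of (PB-TERRA FPKM + 0.1) over (PB FPKM + 0.1) was taken for every gene with at least 1 FPKM in 1 library. This filter kept 253 members, 7 of them through a single library (Zfp14, Zfp30, Zfp558, Zfp575, Zfp618, Zfp786 and Zfp943), and left out 31. It kept 12263 of all genes. The step between low FPKM values gave 24.81 M reads for PB and 24.89 M for PB-TERRA, so that reads per gene could be estimated, and a 95% counting interval (exact binomial, Clopper-Pearson) was placed around each ratio of reads. The median member past the filter had 376 reads in PB (291.5 for those with a KRAB box), against 758 for the median gene. These intervals cover counting error between these 2 libraries only.

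As a whole the members were centred near 0. Their median log2 ratio was 0.01, against -0.0044 over all 12263 genes, and 98.0% of them (248 of 253) lay within 0.5 in either direction, against 95.3% of all genes. The ratio was above 0 in 135 members (53.4%) and below 0 in 116 (45.8%), against 48.6% and 50.9% of all genes. The counting interval lay above 0 for 54 members (21.3%) and below 0 for 22 (8.70%), against 18.2% and 17.5% of all genes, and it included 0 for 177. An absolute log2 ratio of 1 or more was reached by 1 member (Zfp618), against 0.913% of all genes. With fewer reads than the median gene, a member needs a larger ratio for its interval to leave out 0, so these shares are not like for like.

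**Figure D2:**
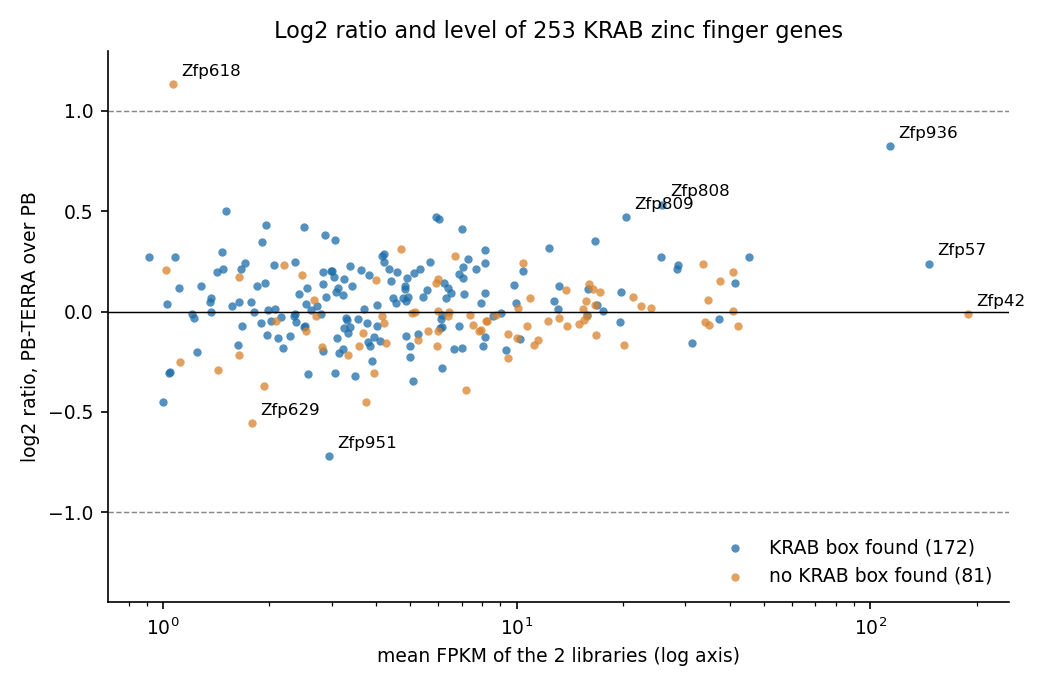
Log2 ratio of PB-TERRA over PB (y axis) against the mean FPKM of the 2 libraries (x axis, log scale) for the 253 members past the filter, each a point. Dashed lines mark an absolute log2 ratio of 1. Only Zfp618 lies past them, and Zfp936 stands apart among the abundant members.

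Genes of like length gave the same picture. Over 20 bins of gene length, the median log2 ratio of the other genes went from -0.05 in the shortest bin (107 to 772 bases) to 0.06 in the longest (7531 to 26576 bases). The members were long, with a median length of 3451 bases among those past the filter, against 2801 bases over all genes past it. After the median of the other genes in its length bin was taken from each member, the members' median was 0.01, with 132 above and 121 below.

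The medians of the 2 kinds of member lay on different sides of 0. Members with a KRAB box had a median log2 ratio of 0.05, with 105 above 0, 65 below and 2 equal among the 172 past the filter, and 43 intervals above 0 (25%) against 13 below (7.56%). Members without a box had a median of -0.03, with 30 above and 51 below among 81, and 11 intervals above 0 (13.6%) against 9 below (11.1%). Over all genes these shares were 18.2% and 17.5%. Less genes of like length, the medians were 0.05 and -0.05. The 92 genes of K09228 that carry a box but another kind of symbol, such as Gm or Rik names, were further in the first direction: 84 passed the filter, their median was 0.18, and 66 were above 0 against 18 below. The other K09228 genes without a box had a median of 0.02, with 57 above 0 and 45 below among 102. Zfp genes outside K09228 had a median of 0.02 (43 past the filter). No test of these differences is possible with 1 library per condition.

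GC content moved with this split. The transcripts of members with a KRAB box had a median GC content of 42.5%, those without one 50.7% and those of all genes 49.9%. Among the genes that are not members, the median log2 ratio went from 0.08 in the decile of lowest GC content (up to 41.4%) to -0.06 in the decile of highest (from 58.1%). Among the 172 members with a box, the 82 with up to 42% GC had a median log2 ratio of 0.16 (65 above 0, 16 below), the 44 with 42% to 46% had 0.02 (23 above, 21 below) and the 46 with over 46% had -0.07 (17 above, 28 below). After the median of other genes of like length and GC content was taken off, members with a box were at 0.02 and those without at -0.02. The 82 of low GC content were then at 0.06. The other K09228 genes with a box, whose median GC content was 40.0%, were at 0.10 in place of 0.18, and those without a box were at -0.01 in place of 0.02, close to the members without one. The part of GC content in the difference was not tested. Among members with a box and a promoter window, the 31 with the telomeric hexamer had 22 ratios above 0 and 9 below. The 121 without it had 70 above and 49 below. The medians were 0.17 and 0.04, and less genes of like length and GC content 0.08 and 0.0069. Median GC content was 39.3% and 42.6%. A link between hexamer and ratio was not tested.

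**Figure D3:**
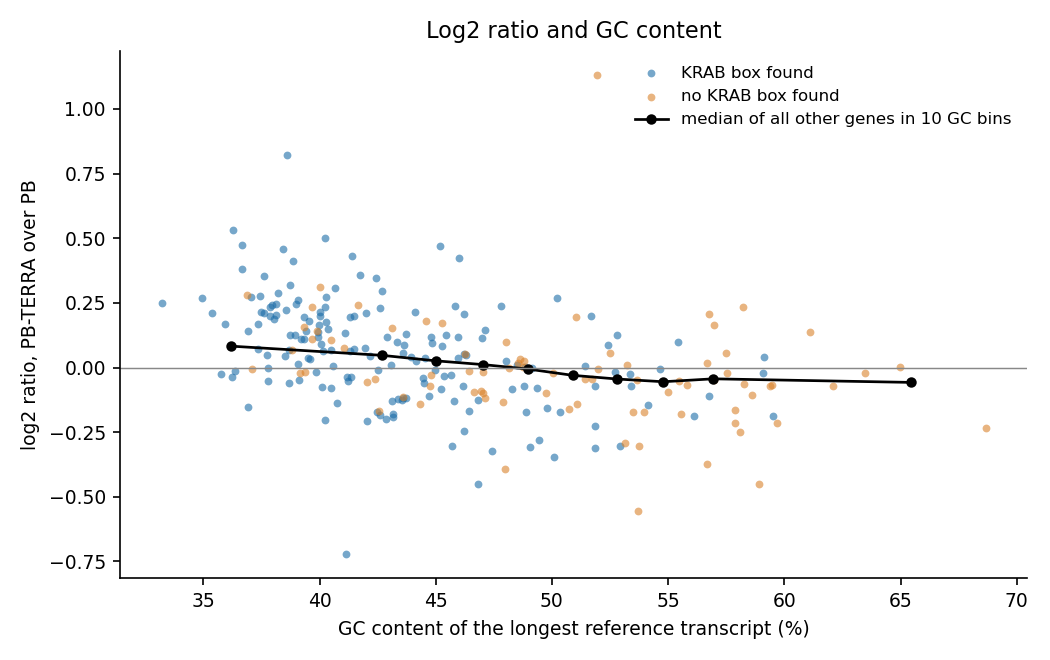
Log2 ratio of PB-TERRA over PB (y axis) against the GC content of the longest reference transcript in percent (x axis) for the members past the filter, with and without a KRAB box. The black line joins the median log2 ratio of all other genes in 10 bins of GC content, drawn at the middle of each bin's range, and it descends from 0.08 to -0.06.

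Among single members, Zfp936 had the largest excess of reads. Its FPKM was 82.19 in PB and 145.47 in PB-TERRA, or 21758 and 38637 estimated reads, with a log2 ratio of 0.82 (0.80 to 0.85). It carried 9.88% of all the members' reads in PB and 15.6% of those in PB-TERRA. The summed FPKM of the 284 members came to 2335.03 for PB and 2491.84 for PB-TERRA, whose log2 ratio is 0.09, and without Zfp936 the log2 ratio of the sums was 0.06. In estimated reads, which weight genes by listed length, the sums were 220155 and 248459, with a depth-scaled log2 ratio of 0.17 (0.16 to 0.18), or 0.08 (0.07 to 0.08) without Zfp936. The table lists Zfp936 with a length of 10785 bases, and the longest transcript in GENCODE M21 has 3112. Zfp808, the next high member with a box, is listed with 13374 bases against 2571. Their FPKM therefore rests on gene models that differ from this annotation, and 6 members are listed with more than 2 times the length of their longest transcript there.

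The 10 highest log2 ratios after the filter began with Zfp618, whose protein has no KRAB box. Zfp618 was at 0.63 FPKM in PB and 1.5 in PB-TERRA, or 25 and 59 estimated reads, with a log2 ratio of 1.13 and the widest interval of the 10 (0.54 to 1.97). It passed the filter only through PB-TERRA, and its listed length of 1695 bases is short of the longest reference transcript (8826 bases). Zfp808 was at 21.09 and 30.56 FPKM, a log2 ratio of 0.53 (0.49 to 0.58). Zfp809, which silences retroviruses by binding their proline primer binding site, was at 17.03 and 23.62 FPKM, a log2 ratio of 0.47 (0.32 to 0.62). Zfp933, Zfp934, Zfp433, Zfp882, Zfp114 and Zfp935 lay between 0.41 and 0.50, at levels of 1.23 to 5.98 FPKM in PB and 1.78 to 7.99 in PB-TERRA. All 10 intervals lay above 0, against 18.2% of all genes, which follows largely from the choice of the highest ratios. Of the 10, 9 have a KRAB box, against 172 of the 253 members past the filter.

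The 10 lowest ratios were of less abundant genes, with means of up to 7.21 FPKM. Zfp951 was at 3.69 FPKM in PB and 2.20 in PB-TERRA, or 249 and 149 estimated reads, with a log2 ratio of -0.72 (-1.05 to -0.45). Zfp629, which has no KRAB box, was at 2.15 and 1.43 FPKM, a log2 ratio of -0.56 (-0.85 to -0.33). Zfp524, Zfp558, Zfp637, Zfp775, Zfp954, Zfp454, Zfp69 and Zfp109 had ratios of -0.45 to -0.31. The interval of Zfp69 included 0 and the other 9 lay below 0, against 17.5% of all genes, which again follows largely from the choice by ratio. Zfp558, at 1.17 FPKM in PB and 0.83 in PB-TERRA, passed the filter only through PB. Of these 10 genes, 6 have a box, against 172 of the 253 members past the filter. Their median GC content was 49.6%, and that of the 10 highest was 39.5%. Over 10% of the 50-base stretches of the transcripts were shared with another gene for 6 of the 10 highest and for 1 of the 10 lowest, so the reads of Zfp935 (60.9% shared) and Zfp433 (84.3%) in particular could be split with their copies. Over all members with a box, the median log2 ratio was 0.04 for the 136 with up to 10% of stretches shared, 0.12 for the 27 with 10% to 50% and 0.25 for the 9 with over 50%. By zinc fingers it was 0.03 for the 59 with up to 10, 0.07 for the 75 with 11 to 15 and 0.08 for the 38 with more. The part of shared sequence in these values was not tested.

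**Figure D4:**
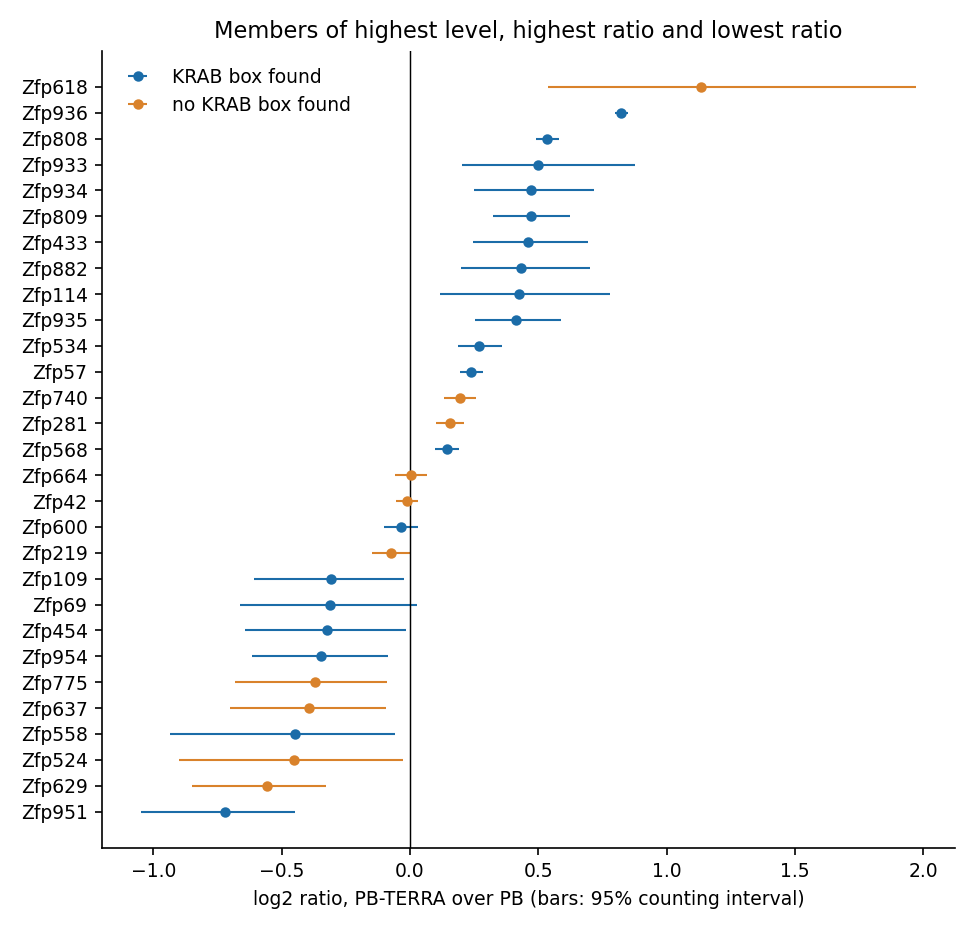
Log2 ratio of PB-TERRA over PB (x axis) with 95% counting intervals (bars) for the members with the 10 highest mean levels, the 10 highest and the 10 lowest log2 ratios. Zfp936 and Zfp57, with many reads, have narrow intervals above 0, and the interval of Zfp618 reaches from 0.54 to 1.97.

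Among the other abundant members, the ratios were smaller. Zfp57 had a log2 ratio of 0.24 (0.19 to 0.29). Zfp568, the repressor of a placental Igf2 transcript, was at 39.25 FPKM in PB and 43.40 in PB-TERRA, giving a log2 ratio of 0.14 (0.10 to 0.19). Zfp534 was at 41.10 and 49.60 FPKM, a log2 ratio of 0.27 (0.19 to 0.36), with 68.4% of its stretches shared with another gene. Zfp740 (0.19) and Zfp281 (0.15) also had intervals above 0. The intervals of Zfp42 (-0.01), Zfp664 (0.0035), Zfp600 (-0.04) and Zfp219 (-0.07) included 0, and 81.2% of the stretches of Zfp600 are shared with another gene.

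The medians of gene clusters spanned -0.08 to 0.44 on the log2 scale. Genes with a KRAB box, members and others, were placed in a cluster where neighbours in GRCm38.p6 lay within 1 Mb and at least 5 passed the filter. This gave 18 clusters, and 12 had a median log2 ratio above 0. The highest was on chromosome 13 and holds Zfp808, Gm3604, Zfp935, Zfp934, 6720489N17Rik and Gm5141, with a median of 0.44. Its 6 genes were all above 0, and 5 intervals lay above 0, the exception being Gm3604 (4.16 FPKM in PB, 4.17 in PB-TERRA). Of all genes, 48.6% had a ratio above 0 and 18.2% an interval above 0. Summed over the 6, 8360 reads in PB stood against 11905 in PB-TERRA, a depth-scaled log2 ratio of 0.51 (0.46 to 0.55). Zfp808 supplied 6938 and 10086 of these reads. The second cluster on chromosome 13, from Zfp369 to Zfp273, had a median of 0.0041 over 23 genes, 13 above 0 and 9 below, and the other genes of the chromosome had a median of 0.0032.

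The next highest medians were those of clusters on chromosome 10 (Gm10778 to Zfp938, 0.25, 5 of 5 above 0), chromosome 2 (Zfp120 to Zfp345, 0.20, 7 of 7, and Gm14393 to Zfp931, 0.27, 23 of 25) and chromosome 4 (LOC101056073 to Zfp933, 0.21, 13 of 15). In the larger chromosome 2 cluster 1 of the 25 genes is a member, and in the chromosome 4 cluster 3 of 15 are. Of the 5 genes on chromosome 10, Zfp781 and Zfp433 share 96.3% and 84.3% of their stretches with another gene. The 25 on chromosome 2 are not all independent: Gm14434 and Gm14308 are listed with the same length (4538 bases) and the same FPKM (1.6 in PB, 2.12 in PB-TERRA), Gm4724 with that length and 1.6 and 2.27 FPKM, and how reads were shared among such copies is not given in the sources used here. In the same cluster Gm8923 was listed at 1.2 FPKM in PB and at 0.01 in PB-TERRA, 0610010B08Rik had a log2 ratio of -0.76, and Gm14431 and 6230416C02Rik had 1.16 each. The 22 genes from Zfp160 to Zfp13 on chromosome 17, of which 19 are members, had a median of 0.14, with 16 above 0 and 6 below. The 7 clusters on chromosome 7 had medians of -0.08 to 0.15, and the highest of these holds Zfp936, whose fellow members Zfp141, Zfp788, Zfp715, Zfp719 and Zfp819 had log2 ratios of 0.27, 0.11, -0.03, -0.17 and -0.17. The lowest median, -0.08, was that of Zfp667 to Zfp772. Less genes of like length and GC content, the first chromosome 13 cluster was at 0.36, the larger chromosome 2 cluster at 0.19, the chromosome 10 cluster at 0.17 and the chromosome 4 cluster at 0.14. The cluster from Zfp160 to Zfp13 was then at 0.05 and that of Zfp936 at 0.05. The second chromosome 13 cluster turned to -0.07, with 9 of 23 genes above 0, and the lowest was Zfp317 to Zfp846 on chromosome 9, at -0.13. The median GC content of the genes was 36.7% in the cluster from Zfp808 to Gm5141 and 54.7% in the cluster from Zfp786 to Krba1 on chromosome 6, whose median log2 ratio was -0.0063. Members with a box had the same median in clusters (0.05, 119 genes) as elsewhere (0.05, 53 genes).

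**Figure D5:**
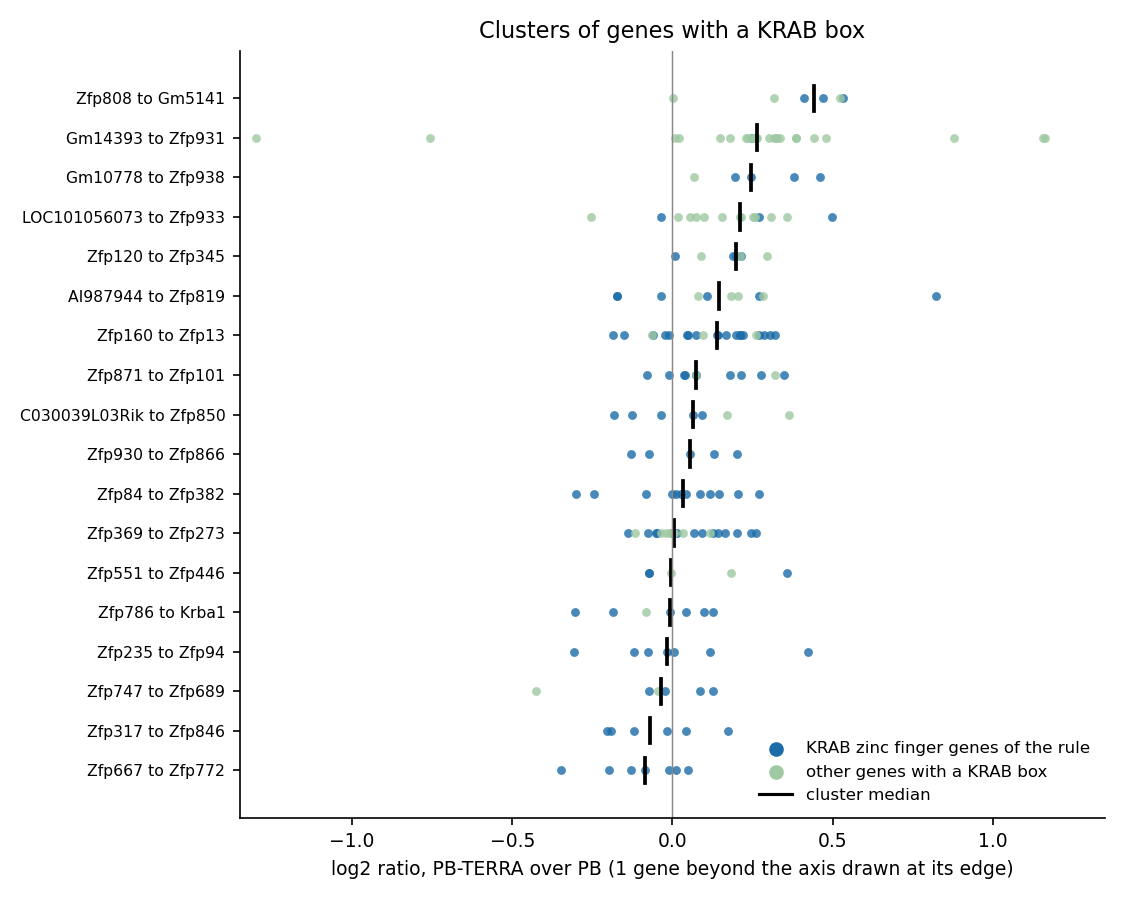
Log2 ratio of PB-TERRA over PB (x axis) of the genes past the filter in 18 clusters of genes with a KRAB box (rows, named by their first and last gene and ordered by median). Bars mark the cluster medians, from -0.08 to 0.44, and 1 gene of the Gm14393 to Zfp931 cluster is drawn at the edge.

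Of a list of 19 members whose functions or targets were the subject of earlier work, 18 passed the filter, 11 above 0 and 7 below, with a median log2 ratio of 0.06. The interval lay above 0 for 6 (Zfp936, Zfp809, Zfp57, Zfp961, Zfp568 and Zfp445) and below 0 for 2 (Zfp951 and Zfp819), or 33.3% and 11.1% of the 18, against 18.2% and 17.5% of all genes. Zfp445, which shares with Zfp57 the task of maintaining imprints, was at 19.04 FPKM in PB and 20.41 in PB-TERRA, giving a log2 ratio of 0.10 (0.03 to 0.17). Zfp932, a repressor of endogenous retroviruses, was at 6.63 and 7.47 FPKM, with an interval that included 0 (-0.04 to 0.40). Zfp708 was at 2.43 and 2.34 FPKM, but 94.9% of its stretches are shared with another gene and its reads cannot be assigned with certainty. Zfp429 did not pass, at 0.04 and 0.05 FPKM.

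The genes of a list of TRIM28, its corepressor partners and other silencing factors were at 13.32 FPKM or more in PB and at 15.22 or more in PB-TERRA. All 18 on the list passed the filter, 14 above 0 and 4 below, with a median log2 ratio of 0.05. Intervals lay above 0 for 7 (38.9%) and below 0 for 3 (16.7%), against 18.2% and 17.5% of all genes. These shares are not like for like. Each of the 18 had at least 1599 estimated reads in PB, against 758 for the median gene, so a smaller ratio leaves out 0. Trim28, the direct partner of the KRAB box, was the highest, at 536.30 FPKM in PB and 480.33 in PB-TERRA, giving a log2 ratio of -0.16 (-0.18 to -0.14). Setdb1, the methyltransferase, was at 39.67 and 40.01 FPKM, with an interval that included 0. The HUSH complex member Fam208a had the highest ratio of the list, 0.29 (0.22 to 0.36), at 13.32 and 16.32 FPKM, whereas its partner Pphln1 had an interval below 0 (-0.25 to -0.04) and that of Mphosph8 included 0. The heterochromatin protein genes Cbx3 (0.19) and Cbx5 (0.17) had intervals above 0, and the de novo DNA methyltransferase genes went opposite ways, Dnmt3a at 0.14 (0.08 to 0.20) and Dnmt3b at -0.17 (-0.20 to -0.13). The 18 ratios spanned -0.17 to 0.29. A list of 12 other zinc finger genes of mESCs, of which 8 are members, had 7 above 0 and 4 below among the 11 past the filter. Their median was 0.04, with 5 intervals above 0 (45.5%) and 0 below, against 18.2% and 17.5% of all genes. These 11 had at least 1028 estimated reads in PB, so their shares are not like for like either.

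The labelled cell type was checked with markers. All 10 mESC markers were expressed, from 31.89 FPKM (Fgf4) to 1162.50 (Dppa5a) in PB and from 37.13 to 1039.92 in PB-TERRA, 5 with a ratio above 0 and 5 below. The intervals of Fgf4, Esrrb, Sox2 and Pou5f1 lay above 0 (ratios of 0.05 to 0.22) and those of Tdgf1, Dppa5a, Utf1 and Nanog below 0 (-0.18 to -0.10). Of 8 fibroblast markers 4 passed the filter. Vim, which mESCs also express, was at 102.81 and 105.57 FPKM, and Thy1 at 9.16 and 8.39. The 3 collagen genes were all higher in PB-TERRA, with intervals above 0: Col1a1 was at 7.99 and 12.14 FPKM (log2 ratio 0.60, 0.50 to 0.71), Col1a2 at 0.92 and 1.37 (0.53, 0.22 to 0.92) and Col3a1 at 0.21 and 0.47 (0.88, 0.53 to 1.88). Col3a1 did not pass the filter, at 28 and 64 estimated reads. At such levels the pseudocount draws the ratio towards 0, while the interval is of the reads alone. Dcn, Postn and Twist2 did not pass either, at no more than 0.56 FPKM in either library. Their log2 ratios were -0.06, 0.17 and -0.43, with intervals that included 0. Summed, the 8 were at 122.09 FPKM in PB and 128.77 in PB-TERRA, and without Vim at 19.28 and 23.20. Their part in the members' values was not tested. In bulk RNA, fewer cells of a type and less RNA per cell cannot be told apart.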

How the data were processed

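The authors sequenced total RNA, harvested with Trizol, from both kinds of 46C mESCs on the BGISEQ-500, with 1 library per condition. The submitters' processing notes name HISAT, Cufflinks and mm9, with no version. The authors deposited 1 table of 18888 genes with gene lengths and expression values, read here as FPKM, which the header does not name. The values are rounded to 2 decimals and are at least 0.01. The table's columns of the authors' comparison (log2 fold change, p-value, adjusted p-value and direction) were not used.

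The members and gene lists were chosen with earlier results of these data known. Log2 ratios used a pseudocount of 0.1 FPKM and kept genes that reached 1 FPKM in either library. Reads were estimated as FPKM times depth times kilobases of length, where the depth (24.81 M reads in PB, 24.89 M in PB-TERRA) and the bases taken off each length (115 and 114) were those that made the values of short genes of low FPKM most nearly whole reads. With these, 84.9% of 630 genes in PB and 86.8% of 675 in PB-TERRA came within 0.25 of a whole read, and the mean distance was 0.101 and 0.0873 read, where values with no such steps would give 0.25. The estimates are not counts, and no count test was run. Counting intervals are exact (95%, Clopper-Pearson) and cover counting error only. The scripts were tested on simulated data. No p-value is given.

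Genes of like length came from 20 bins, and of like length and GC content from 10 bins of each. KRAB boxes were found with pyhmmer 0.12.3, from a profile of 55 seed proteins, on GENCODE M21 proteins, zinc fingers by a C2H2 pattern. RefSeq GRCm38.p6 gave names for all 284 members, neighbours and promoters. Because the table uses mm9, no coordinates of that build are given. Python 3.11.15, pandas 2.3.3 and scipy 1.17.1 were used. The members named are the 10 of highest mean FPKM, the 10 highest and the 10 lowest log2 ratios and the genes of the lists. Others, such as cluster neighbours, were named after their values were seen.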

Additional observations from a re-analysis of the deposited data

How the results depend on the processing

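Of 49 alternatives over 8 results, 35 left the value within the interval of the main result or, for counts, within 1.5 times. The other 14 moved it, and none reversed a sign. Counts and the median FPKM have no sign to reverse. The interval of a median was taken over genes, which are not replicates, so it measures no spread between libraries. For members with a KRAB box, the median of 0.054 became 0.019 less genes of like length and GC content, still within that interval. Limited to members with a KRAB box and zinc fingers, the median log2 ratio was 0.052, the same less genes of like length 0.049, the median FPKM 3.83 and the log2 ratio of the summed FPKM 0.17, where all members gave 0.01, 0.01, 4.82 and 0.09. For the members with a box the last value was 0.11 without Zfp936. The 1 member past a log2 ratio of 1, Zfp618, was no longer past it with a pseudocount of 1 and was not tested where the mean had to reach 2 FPKM or in the KRAB box set, so that each of these counts was 0. With every gene of K09228 there were 5 such genes, 159 intervals on 1 side of 0 in place of 76, and a summed log2 ratio of 0.10. The filter at 2 FPKM gave a median level of 5.93 FPKM. The log2 ratio of the sums was 0.17 in reads, 0.10 without Zfp42 and 0.059 without Zfp936, and the last alternative was chosen after the data were seen, as were those for members with and without a box. Median-of-ratios scaling shifted log2 ratios by 0.0041 before the pseudocount, and with it the members' median went from 0.0132 to 0.0172. No paired analysis was possible because each condition has 1 library, and for the same reason no library could be left out. Depth limits the low members: at 25 and 59 reads, the interval of Zfp618 spans more than 1 on the log2 scale.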
